A study of Mus musculus with 2 samples.

Results

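Genes that mark blood vessels, blood cells and bone-resorbing osteoclasts were examined for open chromatin in the cartilaginous ends of the embryonic mouse femur. The 10 genes were chosen by name, for their lineage, as a check of vascular or marrow cells in the dissected tissue. They and the further gene lists were chosen with earlier results of these data known. They were Pecam1, Cdh5, Kdr and Tek for the endothelium, Tal1, Spi1 and Ptprc for blood, and Csf1r, Ctsk and Acp5 for macrophages and osteoclasts. They stand among 20807 autosomal protein-coding genes of the GENCODE mouse release 21 annotation (mm10). Peaks of both femur ends inside the gene record or within 50 kb of it were taken, which gave 32 of the 32388 peak regions of the series. A peak region is a stretch merged from peaks of both ends that overlap by at least 1 bp.

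The data are ATAC-seq, in which a transposase cuts accessible DNA and tags it for sequencing, so that peaks mark accessible sites. Each femur of FVBNJ embryos at E15.5 was dissected into its proximal and distal cartilage, which was pooled by litter, at 8 animals per pool on average, with 50000 cells per library. The cells are labelled as chondrocytes, but the tissue included the overlying perichondrium, while the bony shaft had been cut away. Each end is represented by 1 list of peak positions that combines 2 biological replicates, without heights or scores, so no value given here carries replicate error and no difference between the ends could be tested.

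Cartilage of the growing femur is avascular. Vessels run in the perichondrium and enter the hypertrophic zone from the shaft, together with blood progenitors and the osteoclasts that resorb calcified matrix. Endothelial cells answer to vascular endothelial growth factor through Kdr and to angiopoietins through Tek, and hold together through the junction proteins Pecam1 and Cdh5. Tal1 and Spi1 are transcription factors of blood formation, and Ptprc is the phosphatase CD45, found on nearly all nucleated blood cells. Csf1r receives the survival signal of macrophages and osteoclast precursors, and Ctsk and Acp5 encode cathepsin K and tartrate-resistant acid phosphatase, enzymes of the resorbing osteoclast. In a bulk peak list, a site open in a few cells and a site weakly open in many cells cannot be told apart.

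Only 2 of the 10 genes, Kdr and Tek, had a promoter peak, that is, a peak with its nearest edge within 1 kb of an annotated start site of the gene. The 95% Wilson interval of this share was 5.67% to 51.0%, which like all intervals here covers counting error only. Among all autosomal protein-coding genes, 59.1% had a promoter peak in either end and 55.0% had one in both ends. Kdr was the gene with a promoter peak in both ends. Tek had one in the distal end only, a pattern seen in 2.77% of protein-coding genes, against 1.37% with a promoter peak in the proximal end only. The other 8 genes had no promoter peak in either list.

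Sequence around the starts differed among these genes. RefSeq promoter entries (GRCm38.p6, the build of the mm10 peaks) matched 6 of the 10 members, Kdr, Tek, Tal1, Ptprc, Ctsk and Acp5. The 250 bases upstream of the start are shown for Kdr and Tek, which had a peak there, and for Tal1, Ctsk and Acp5, which had none. For Tal1 and Acp5, which have further RefSeq starts, the outermost is shown. Capitals mark CG dinucleotides, which are dense in promoters that are open in many tissues.
Kdr, chr5:75978456-75978705, minus strand: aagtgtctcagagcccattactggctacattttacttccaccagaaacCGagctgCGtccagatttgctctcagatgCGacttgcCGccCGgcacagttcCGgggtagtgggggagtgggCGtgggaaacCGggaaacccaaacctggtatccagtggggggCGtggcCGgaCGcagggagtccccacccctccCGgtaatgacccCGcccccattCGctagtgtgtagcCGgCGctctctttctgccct
Tek, chr4:94739039-94739288, plus strand: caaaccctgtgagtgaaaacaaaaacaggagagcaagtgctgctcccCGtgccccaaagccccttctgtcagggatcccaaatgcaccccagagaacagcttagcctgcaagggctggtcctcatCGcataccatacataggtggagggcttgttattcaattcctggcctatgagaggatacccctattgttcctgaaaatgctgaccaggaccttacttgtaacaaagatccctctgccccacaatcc
Tal1, chr4:115056176-115056425, plus strand: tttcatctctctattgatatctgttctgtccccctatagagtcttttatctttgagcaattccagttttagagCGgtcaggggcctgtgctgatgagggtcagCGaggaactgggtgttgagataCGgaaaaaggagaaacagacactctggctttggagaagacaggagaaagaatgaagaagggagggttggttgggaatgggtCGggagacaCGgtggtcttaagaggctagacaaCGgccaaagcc
Ctsk, chr3:95498960-95499209, plus strand: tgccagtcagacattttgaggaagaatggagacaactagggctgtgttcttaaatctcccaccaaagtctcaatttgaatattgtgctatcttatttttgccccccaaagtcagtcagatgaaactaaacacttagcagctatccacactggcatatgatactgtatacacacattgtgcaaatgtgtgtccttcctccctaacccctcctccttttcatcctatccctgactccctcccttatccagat
Acp5, chr9:22135747-22135996, minus strand: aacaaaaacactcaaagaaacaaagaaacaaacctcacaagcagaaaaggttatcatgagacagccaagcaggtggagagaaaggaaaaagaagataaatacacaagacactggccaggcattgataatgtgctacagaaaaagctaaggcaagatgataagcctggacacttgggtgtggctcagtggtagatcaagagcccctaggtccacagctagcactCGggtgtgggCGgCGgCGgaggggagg
The Kdr stretch held 16 CG dinucleotides, the Tal1 stretch 6, that of Acp5 4, that of Tek 2 and that of Ctsk 0. The stretches before other RefSeq starts, not printed, held 16 CG dinucleotides at Tal1, 12 and 5 at Acp5, and 4 and 2 at Ptprc, and none of these starts had a promoter peak. A stretch as rich in CG as that of Kdr was thus found at Tal1 without a peak, and Tek had a peak with as few as a stretch of Ptprc.

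Across protein-coding genes, promoter peaks were read beside the observed over expected CpG ratio of the 300 bases from 250 before to 50 after the start of the gene record. Of genes with a ratio under 0.6, 34.1% had a promoter peak in either end, and of genes with a ratio of 0.6 or more, 89.1%. Of the 10 members, 8 had a ratio under 0.6, and 1 of these 8, Tek (ratio 0.149), had a promoter peak. The ratios of the other low-CpG members ran from 0.166 for Spi1 to 0.418 for Ctsk. The 2 members above the split were Kdr, at 0.660 with a promoter peak, and Tal1, at 0.647 without one. The plot of promoter peaks by CpG ratio shows where each member fell.

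**Figure D1:**
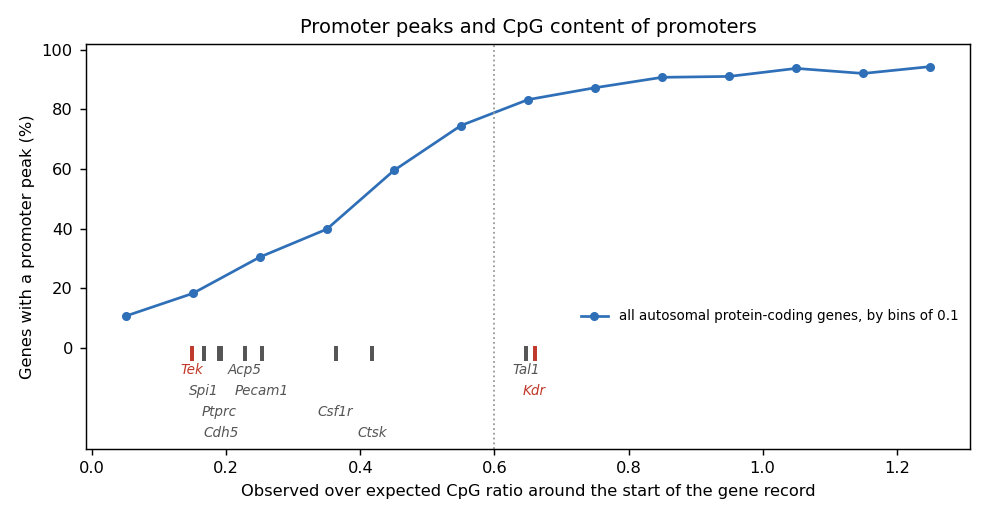
Share of autosomal protein-coding genes with a promoter peak in either femur end (y axis, percent) by observed over expected CpG ratio of the promoter (x axis, bins of 0.1 that hold at least 50 genes), with ticks at the ratios of the 10 members, red for the 2 with a promoter peak. The share ran from 10.6% in the lowest bin to over 90% from a ratio of 0.8, and most members lay at the low end, with Kdr and Tal1 above the split at 0.6 (dotted line).

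At Kdr (chromosome 5, from 75932827 to 75978458 on the minus strand), the promoter peak ran from 75978076 to 75978890 in the proximal end and from 75977634 to 75978980 in the distal end. Its width was 815 bp in the proximal and 1347 bp in the distal list, where 62.7% and 95.2% of peaks were narrower. The distal peak covered the whole of the proximal one and extended past it on both sides. The gene had 1 further region, of 472 bp, called in the proximal end only, 12.0 kb upstream of the start. No peak of either end lay in the rest of the 45632 bp gene, and the next region outside the window was 161 kb away.

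At Tek (chromosome 4, from 94739289 to 94874976 on the plus strand), the distal list had a peak of 918 bp over the start, from 94738554 to 94739471. It was wider than 95.5% of the 8753 regions called in 1 end only, whose median width was 504 bp. The median width of the promoter peaks of genes with one in the distal end only was 622 bp. The nearest proximal peak lay 12887 bp from a start site, in an intron, from 94752405 to 94752978, and it had no counterpart in the distal list. Both regions of Tek were therefore called in 1 end only, and in opposite ends.

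At Cdh5 (chromosome 8, from 104101625 to 104144511 on the plus strand), the nearest proximal peak was 9623 bp and the nearest distal peak 10321 bp from a start site. The window held 6 regions, more than the windows of 82.8% of protein-coding genes, and 4 of the 6 were called in 1 end only. The region called in both ends inside the gene was intronic, 20.3 kb after the start, with a width of 774 bp in the proximal and 525 bp in the distal list. A region of 500 bp in the proximal end only lay 9.87 kb upstream. Another region called in both ends covered the start of the neighbouring gene Bean1, and the remaining 3 regions, a proximal one of 520 bp and distal ones of 367 bp and 347 bp, were also nearest to a Bean1 start. Pecam1 (chromosome 11, from 106654217 to 106750628 on the minus strand) had no region within its 96412 bp. Its 3 regions, all called in both ends, covered start sites of other genes. These were Tex2, then Polg2, an accessory subunit of the mitochondrial DNA polymerase, and the shared start of Ddx5, an RNA helicase, and Cep95. The nearest of them was 28318 bp from a start site of Pecam1, farther than in 79.2% of protein-coding genes.

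The blood genes had regions in both ends, but none at their starts. Tal1 (chromosome 4, from 115056426 to 115071755 on the plus strand) had 4 regions, all called in both ends. One lay 3.65 kb upstream, with widths of 596 bp in the proximal and 668 bp in the distal list, and one 6.87 kb after the start in an exon, with widths of 694 bp and 657 bp. The other 2 lay past the 3′ end, one over the start of Pdzk1ip1 and one 45.5 kb from the Tal1 start. The upstream and the exonic region held 22 and 26 CG dinucleotides in the 200 bp around their centres, more than 99.2% and 99.7% of the regions over 1 kb from any start site, where the median was 3. At Spi1 (chromosome 2, from 91082390 to 91115756 on the plus strand), 4 regions were called in both ends. Of these, 2 covered the starts of Psmc3, a proteasome subunit, and Slc39a13, a zinc transporter. An intronic region, of 365 bp in the proximal and 373 bp in the distal list, lay 19.2 kb after the start. The last region lay at the end of the gene, with its centre in an exon, and was nearest to the start of Mybpc3, which encodes cardiac myosin-binding protein C. It held 20 CG dinucleotides in its central 200 bp.

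At Ptprc (chromosome 1, from 138062861 to 138175708 on the minus strand), all 5 regions were nearest to a Ptprc start among protein-coding genes. The window held no start site of another protein-coding gene with a peak. The region 39.1 kb after the start was intronic and called in both ends, at 562 bp in the proximal and 466 bp in the distal list. A second intronic region, of 280 bp, was called in the distal end only and only 0.971% of the regions called in 1 end only were narrower. The region 15.3 kb upstream was called in both ends and lay 846 bp from the start of a noncoding gene. Of the 2 regions past the 3′ end, the nearer was called in both ends and the farther, of 490 bp, in the proximal end only.

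As a group, the macrophage and osteoclast genes had the fewest regions nearest to their own starts, though Pecam1 also had none. Csf1r (chromosome 18, from 61100598 to 61132149 on the plus strand) had 1 region in its window, over the start of Hmgxb3, 44.3 kb past its 3′ end, at 1145 bp in the proximal and 1113 bp in the distal list. The region nearest to its start lay outside the window, 55168 bp upstream, at the start of Pdgfrb, a receptor of mural cells. Ctsk (chromosome 3, from 95499256 to 95509362 on the plus strand) had no region within 50 kb, as had 13.6% of protein-coding genes. The nearest region to it was at the start of Arnt, 64316 bp away, farther than in 87.2% of protein-coding genes. Acp5 (chromosome 9, from 22126727 to 22135711 on the minus strand) had 5 regions, all called in both ends. Of these, 3 covered the starts of Ecsit, Elof1 and Pigyl, and 1 was nearest to Cnn1, which encodes the smooth muscle protein calponin. The only one nearest to an Acp5 start was intronic, at 380 bp in the proximal and 394 bp in the distal list, and lay 1486 bp from an annotated start site inside the gene. With a promoter distance of 2 kb it counted as a promoter peak in both ends, which raised the number of members with one from 2 to 3.

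**Figure D2:**
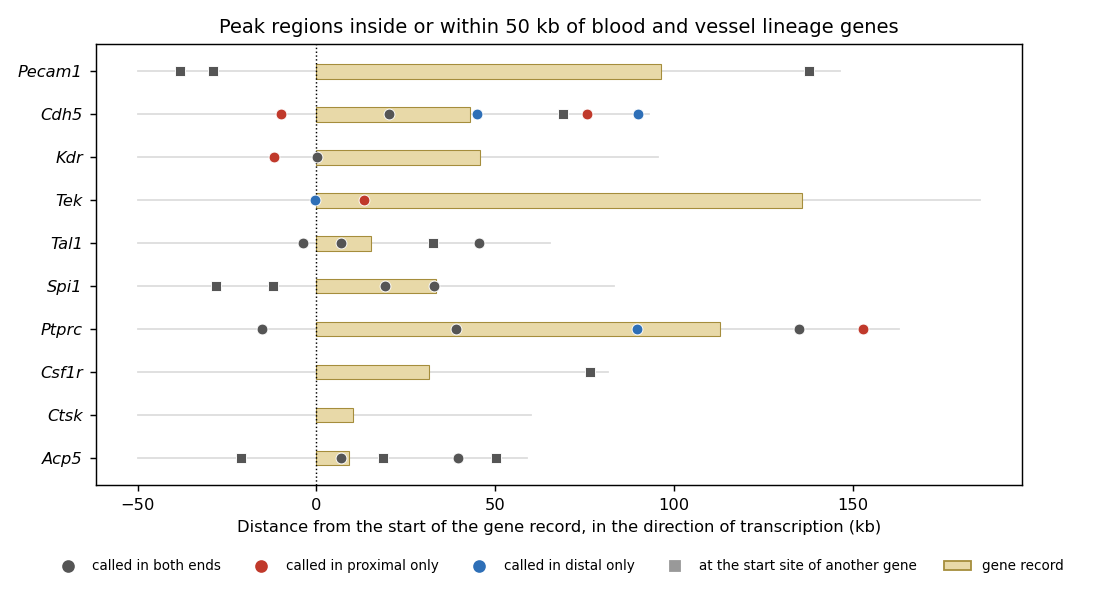
Peak regions inside or within 50 kb of each member (rows), at the distance of their centre from the start of the gene record in the direction of transcription (x axis, kb), coloured by the end in which they were called, with squares for regions at the start site of another protein-coding gene. Of 32 regions, 23 were dark (both ends), 5 red (proximal only) and 4 blue (distal only), the starts of Kdr and Tek were the only ones with a region, and the row of Ctsk was empty.

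Counted over all members, the windows held 28 proximal and 27 distal peaks. The number of regions per window ran from 0 for Ctsk to 6 for Cdh5 with a median of 3.50, against a median of 3 for all protein-coding genes. A window often held the open start of a neighbour. Of the 32 regions, 17 were nearer to a start site of another protein-coding gene than to one of the member, and 11 of these lay at that start. All 11 were called in both ends, with a median width of 992 bp. The 15 regions nearest to a member's own start (46.9%) had a median width of 547 bp, and 13 of the 15 lay more than 1 kb from it. Of the 15, 6 were called in 1 end only, and a merged region is at least as wide as each of its peaks. When the start sites of all annotated genes were used, noncoding ones included, 12 regions were nearest to the member's own start. The gene record itself held no region for Pecam1, Csf1r and Ctsk, and such genes made up 36.6% of all protein-coding genes.

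For the 8 members without a promoter peak, the distance from a start site to the nearest region ran from 1.49 kb for Acp5 through 3.31 kb for Tal1, 4.62 kb for Spi1, 9.62 kb for Cdh5, 15.0 kb for Ptprc, 28.3 kb for Pecam1 and 55.2 kb for Csf1r to 64.3 kb for Ctsk. Their median was 12.3 kb, and the median of the 8505 protein-coding genes without a promoter peak was 29.2 kb. The regions just inside the limit of 50 kb lay 46.9 kb from Cdh5 and 44.3 kb from Csf1r, and those just outside it lay 50.2 kb from Cdh5 and 52.2 kb from Acp5.

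**Figure D3:**
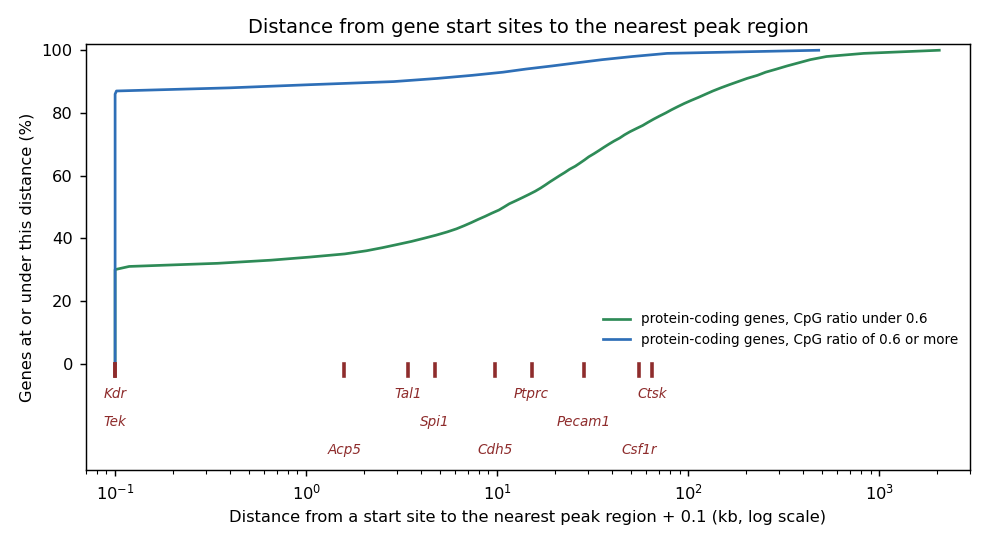
Cumulative share of autosomal protein-coding genes (y axis, percent) by distance from a start site to the nearest peak region plus 0.1 kb (x axis, log scale), for genes with a CpG ratio under 0.6 and of 0.6 or more, with ticks at the 10 members. Kdr and Tek lay at a distance of 0, and the other 8 members spread from 1.49 kb to 64.3 kb.

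Of the 32 regions, 9 were called in 1 end only, a share of 28.1% (95% Wilson interval 15.6% to 45.4%), which is near the 27.0% of all regions. Of the 18 member regions over 1 kb from any annotated start site, 8 were called in 1 end only, or 44.4% (interval 24.6% to 66.3%), against 38.0% of all such regions. The 9 were divided into 5 proximal and 4 distal ones. They lay at Cdh5 (4), Tek (2), Ptprc (2) and Kdr (1), while the regions of Pecam1, Tal1, Spi1, Csf1r and Acp5 were all called in both ends. Their widths ran from 280 bp to 918 bp with a median of 490 bp, and the 23 regions called in both ends had a median of 776 bp. Part of this difference is by construction, since a region called in both ends spans the peaks of both lists. As the lists hold no heights, a region absent from a list may lie just under its threshold.

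Sequences of the regions away from start sites were searched on both strands, in the 200 bp around each centre, for short motifs of factors of these lineages and of cartilage. The stretches below were chosen to show a region nearest to a member's own start with a match, for the endothelial genes Cdh5 and Kdr (both called in the proximal end only), for Tal1 and Ptprc, and for Acp5. They are given in the direction of transcription of the member, from the mm10 assembly. Capitals mark matches to GAGGAAG (PU.1) in Cdh5, TGANTCA (AP-1) in Kdr, CAGGAA (ETS factors) and ACAAAG (SOX factors) in Tal1, TGTGGT (RUNX factors) in Ptprc, and CAGGAA and TGANTCA in Acp5, each on either strand.
Cdh5, chr8:104091653-104091852, plus strand: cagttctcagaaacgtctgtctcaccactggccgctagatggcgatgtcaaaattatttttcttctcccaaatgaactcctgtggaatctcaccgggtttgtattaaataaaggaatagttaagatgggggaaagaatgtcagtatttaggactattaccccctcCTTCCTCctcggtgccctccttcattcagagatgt
Kdr, chr5:75990343-75990542, minus strand: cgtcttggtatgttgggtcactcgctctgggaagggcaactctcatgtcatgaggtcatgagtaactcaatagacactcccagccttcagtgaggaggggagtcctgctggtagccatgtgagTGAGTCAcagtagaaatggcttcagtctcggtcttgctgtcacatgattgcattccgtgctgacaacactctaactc
Tal1, chr4:115052679-115052878, plus strand: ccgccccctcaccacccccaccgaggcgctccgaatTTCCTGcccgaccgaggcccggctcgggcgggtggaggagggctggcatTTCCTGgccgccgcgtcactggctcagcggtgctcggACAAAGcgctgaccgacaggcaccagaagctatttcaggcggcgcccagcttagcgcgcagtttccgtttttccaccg
Ptprc, chr1:138136488-138136687, minus strand: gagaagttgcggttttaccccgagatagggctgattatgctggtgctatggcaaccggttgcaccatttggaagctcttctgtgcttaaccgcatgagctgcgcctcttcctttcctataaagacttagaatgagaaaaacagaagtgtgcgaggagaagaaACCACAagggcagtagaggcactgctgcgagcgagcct
Acp5, chr9:22128804-22129003, minus strand: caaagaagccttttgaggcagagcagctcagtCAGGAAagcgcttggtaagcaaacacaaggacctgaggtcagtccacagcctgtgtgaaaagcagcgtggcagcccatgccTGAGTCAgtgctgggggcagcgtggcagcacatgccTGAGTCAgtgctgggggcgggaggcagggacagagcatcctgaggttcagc
The 18 member regions over 1 kb from any start held the ETS motif in 5 cases (27.8%), and the AP-1 motif also in 5 (27.8%). Among all 18614 such regions of the series the shares were 27.4% and 36.6%. The RUNX motif was found in 2 member regions (11.1%, against 18.1%), the PU.1 motif in 1 (5.56%, against 7.69%) and the SOX motif in 1 (5.56%, against 12.7%). The motif AGATAA of GATA factors, which work with Tal1 in blood cells, was in 0 of the 18, against 4.61% of all such regions. At so low a share, 18 regions are too few to show an absence. These shares were not tested against each other, and a match does not show that a factor binds.

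The promoter calls of further genes of the same lineages are shown beside those of cartilage in the plot by gene list. Of 90 further genes in 5 lists (endothelial, blood transcription factors, erythroid and megakaryocyte, myeloid and lymphoid, osteoclast), 34 had a promoter peak in either end, or 37.8% (95% Wilson interval 28.5% to 48.1%), of which 25 were in both ends, 4 in the proximal end only and 5 in the distal end only. With only the start of the gene record, in place of all annotated start sites, the number was 23, and that of all protein-coding genes fell from 12302 to 11416. Split by CpG ratio, 16 of 68 genes under 0.6 (23.5%) and 18 of 22 genes at or above it (81.8%) had one, beside the 34.1% and 89.1% of all genes. The ratio was taken at the start of the gene record, also for genes whose counted peak lay only at another start. The 4 CpG-rich genes without a promoter peak, named after their values were seen, were Flt4, Sox7 and Sox17 of the endothelial list and Clcn7 of the osteoclast list.

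**Figure D4:**
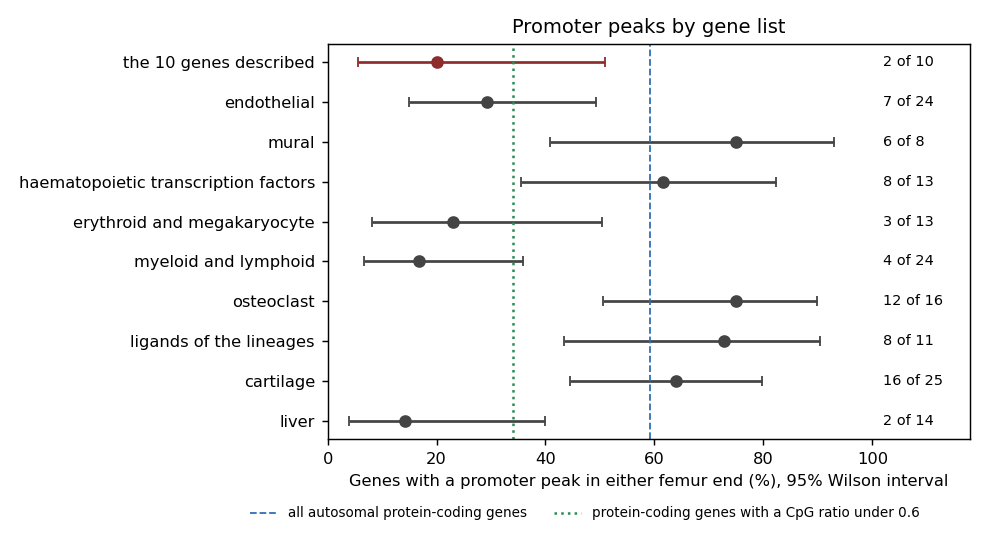
Share of genes with a promoter peak in either femur end (x axis, percent, with 95% Wilson intervals) for the 10 genes described and 9 further lists (rows), with the number of genes at the right. The dashed line is the share of all autosomal protein-coding genes (59.1%) and the dotted line that of genes with a CpG ratio under 0.6 (34.1%), and the members, the endothelial, erythroid, myeloid and liver lists had values under both lines.

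Beside the 59.1% of all protein-coding genes, 7 of 24 genes of the endothelial list (29.2%, interval 14.9% to 49.2%) had a promoter peak. All 7 had it in both ends. These were Flt1, a receptor of vascular endothelial growth factor, the transcription factors Erg and Prox1, the surface proteins Cd34, Clec14a and Esam, and Vwf, the von Willebrand factor. The peaks of Esam and Vwf lay only at start sites other than that of the gene record. With that start alone 5 of 24 were left, beside 11416 of all 20807 protein-coding genes. In the myeloid and lymphoid list the count was 4 of 24 (16.7%, interval 6.68% to 35.9%). Fcgr3 and Lcp1 had one in both ends, Cd68 in the proximal and Coro1a in the distal end only. The Lcp1 peak also covered the start of Lrrc63. In the erythroid and megakaryocyte list the count was 3 of 13 (23.1%, interval 8.18% to 50.3%). Among them were Itga2b, a platelet integrin, in both ends and Ank1 in the distal end only. Chromosome X holds Gata1, the main erythroid factor, and no peaks in these lists, so it could not be assessed. The Itga2b and Coro1a peaks also lay only at other start sites than that of the gene record.

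The list of blood transcription factors had 8 of 13 genes with a promoter peak (61.5%), near the 59.1% of all protein-coding genes. Cebpa, Gata2, Irf8, Klf1 and Runx1 had one in both ends, Lmo2 and Myb in the proximal end only and Nfe2 in the distal end only. The peaks of Gata2, Lmo2, Runx1 and Nfe2 lay only at start sites other than that of the gene record. At that start alone, 4 of the 13 had one, a lower share than the 11416 of all 20807 protein-coding genes. The share was thus near that of all genes only when all annotated start sites were counted. In the osteoclast list the count was 12 of 16 (95% Wilson interval 50.5% to 89.8%, which includes the 59.1% of all genes), of which Calcr, Car2, Itgb3, Mitf, Nfatc1, Oscar, Ostm1, Src and Tcirg1 had one in both ends, Atp6v0d2 in the proximal end only, and Mmp9 and Tnfrsf11a, the receptor of the osteoclast differentiation signal, in the distal end only. Many of these, such as Src, Mitf and Car2, are also used by other cell types, and the Oscar peak was nearer to the start of Ndufa3. The peaks of Mmp9, Ostm1 and Src lay only at other start sites than that of the gene record. This left 9 of 16, beside the same 11416 of 20807. The 4 osteoclast genes without one were Clcn7, Dcstamp, Ocstamp and Siglec15, of which Dcstamp and Ocstamp act in cell fusion. Of the 8 mural genes, taken as markers of the cells around vessels, 6 had one (interval 40.9% to 92.9%). This interval also includes the 59.1% of all genes, while those of the members and of the endothelial, erythroid, myeloid and liver lists lay under it. The genes of each list were picked by name, so the intervals are descriptions and not a test. Abcc9, Kcnj8, Pdgfrb and Rgs5 had a promoter peak in both ends, Acta2 in the proximal end only and Cspg4 in the distal end only, while Mcam and Notch3 had none. For the mural and the endothelial lists, the cells in which these sites were open cannot be told, as the tissue included perichondrium and chondrocytes.

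The signals that act on these cells were counted in the same way. Of 11 ligands and decoys, 8 (72.7%, 95% Wilson interval 43.4% to 90.3%) had a promoter peak, in both ends in each case. The shares of all genes, 59.1% in either end and 55.0% in both, lay inside this interval. Vegfa and Vegfc, ligands of Kdr and its relatives, had one, as had Kdr and Flt1, while Vegfb and the receptor gene Flt4 had none. Angpt1 and Angpt2 had one in both ends, and their receptor gene Tek in the distal end only. Csf1 had one, while Il34, the other ligand of Csf1r, and Csf1r itself had none. Tnfsf11, the osteoclast differentiation signal, and its decoy Tnfrsf11b had one in both ends, and Tnfrsf11a in the distal end only. Kitl also had one, and Cxcl12 had none, with its nearest region 1.12 kb from a start site.

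The labelled tissue was checked against cartilage genes. Of 25, 16 had a promoter peak (64.0%, interval 44.5% to 79.8%), among them Col2a1, Acan and Sox9 in both ends. This share is near the 59.1% of all protein-coding genes, so the count alone does not set the tissue apart. It was found in both ends for Cnmd, Col11a1, Col9a1, Col9a3, Fgfr3, Hapln1, Matn3 and Sox6 too, in the proximal end only for Sox5, and in the distal end only for Col11a2, Col9a2, Comp and Snorc. The peaks of Sox5 and Snorc, like that of Angpt2 among the ligands, lay only at start sites other than that of the gene record. The 9 without one were Chad, Col10a1, Ihh, Matn1, Matn4, Pth1r, Runx2, Runx3 and Ucma. Among genes with a CpG ratio under 0.6, of which 34.1% had a promoter peak in the whole annotation, it was found in 11 of 19 cartilage genes, 6 of 7 mural genes, 5 of 6 ligands and 5 of 8 osteoclast genes. It was found in 4 of 9 blood transcription factors, 4 of 18 endothelial, 2 of 12 erythroid and megakaryocyte, 1 of 21 myeloid and lymphoid and 1 of 13 liver genes, and in 1 of the 8 members. High counts were therefore not particular to cartilage. The CpG ratio was taken at the start of the gene record, while a promoter peak could lie at any annotated start. For Vwf, Runx1, Lmo2, Nfe2, Itga2b, Mmp9, Src, Angpt2, Sox5, Snorc and Tdo2, all under 0.6, the counted peak lay only at another start. Their ratios are not those of the starts with the peaks. The liver genes, taken as genes of a tissue that is absent, had a promoter peak in 2 of 14 cases, Apoh, where the peak was nearer to the start of Prkca, and Tdo2, where it lay only at another start site than that of the gene record. The part of minor cell types in any of these peaks was not tested.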

How the data were processed

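ATAC-seq reads were aligned to mm10 by the authors with Bowtie2 2.2.8, duplicates were removed, and peaks were called with MACS2 2.1.1 (versions from the submitters' processing notes). An irreproducible discovery rate (IDR) threshold of 0.05 across the 2 replicates then decided which peaks were listed. The deposited files hold only peak positions, 28257 in the proximal and 27958 in the distal list, on 19 autosomes, so the depth behind a peak is unknown. Reads and other thresholds were not analysed here.

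Positions were compared with GENCODE mouse release 21 and GRCm38.p6 sequence using Python 3.11.15, NumPy 2.4.6, SciPy 1.17.1 and pysam 0.24.0. Overlap was counted from 1 bp, promoter peaks within 1 kb of any annotated start site, and windows as 50 kb. No hypothesis test was run, since each end is 1 list. Intervals are 95% Wilson intervals. Overlap and promoter functions were tested on simulated data. The members and gene lists were chosen with earlier results of these data known. All members were named, with every protein-coding gene whose start was nearest to a member region, and in each list the genes with a promoter peak in 1 end only and up to 12 others with a promoter peak, or without one where these were fewer. A gene of these lists that the rule names is not reported here. Alternatives covered promoter distance, start sites, window, overlap and peak width.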

Additional observations from a re-analysis of the deposited data

How the results depend on the processing

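No paired analysis was possible because each femur end has 1 peak list that combines its replicates, and for the same reason no replicate was left out. Of 31 alternatives, 26 kept a count within 1.5 times its value and 5 did not. With a window of 10 kb there were 14 regions near the members and 5 called in 1 end only, and with 100 kb there were 52 regions. When peaks narrower than the list median were dropped there were 14 regions and 3 called in 1 end only. A smaller window and the width limit lower these counts, and a larger window raises them, by construction. Kdr and Tek had a promoter peak under every alternative, Tek in the distal end only, and Acp5 joined them at 2 kb. Requiring that a promoter peak be nearest to a start of the gene itself, chosen after seeing the data, left 33 of the 34 lineage list genes with one. With a promoter distance of 500 bp the lineage lists had 31 genes with one, and with 2 kb they had 37. The nearest regions of Klf1, Oscar and Mmp9 lay 876 bp, 809 bp and 805 bp from a start site, so their calls depend on the distance of 1 kb. With a window of 100 kb, Ctsk had 3 regions.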

Other observations

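The 2 regions of Tal1 nearest to its starts were rich in CG dinucleotides and open in both ends, while neither of its RefSeq starts had a peak within 1 kb. Together with Flt4, Sox7, Sox17 and Clcn7, Tal1 was among the CpG-rich lineage genes without a promoter peak. Its ratio of 0.647 was near the split at 0.6. Over only the 250 bases upstream of the same start the ratio was 0.446, under the split, and upstream of its other RefSeq start it was 0.740. The class of Tal1 thus depends on the stretch used. Of all genes with a ratio of 0.6 or more, 89.1% had a promoter peak, and of those in the 5 lineage lists, 18 of 22 (81.8%). The 5 genes named here were noticed in the data, and no reason for their lack of a promoter peak was tested.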
